A study of Mus musculus with 3 samples.

Results

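The genes described here, measured in C2C12 cells, a mouse myoblast line, are 44 genes of the actin cytoskeleton and of focal adhesions. They were chosen by name, with earlier results of these data known. Of these, 40 had at least 1 array probe set that the platform annotation assigns to that gene alone, out of 12393 genes so named on the array. Arpc1b was found only on probe sets shared with another gene symbol, and Myh10, Arpc3 and Rock2 were not analysed here because no probe set carried their name. The study used 3 arrays of 1 sample each. The first sample was untreated C2C12 cells, the second was cells transfected with EGFP, enhanced green fluorescent protein, and the third was cells transfected with diacylglycerol kinase zeta (DGKzeta), an enzyme that phosphorylates diacylglycerol to phosphatidic acid. All 3 were labelled 12 h, and cells had been in culture plates for 18 h before transfection with the FuGene reagent. The sources used here do not give the construct, its promoter or the share of cells that took it up. No group had a replicate, so no difference below has a replicate check, no test was run, and sizes alone are described. In these bulk samples, fewer cells of a type and less RNA per cell cannot be told apart.

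Actin monomers assemble into filaments whose growth is set by nucleators, capping proteins and severing proteins, and whose spacing is set by crosslinkers such as alpha-actinin and filamin. Myosin II pulls on these filaments, under the control of the small GTPase RhoA and its kinase ROCK, and focal adhesions tie the filament ends to integrins in the membrane. In myoblasts this machinery serves adhesion, migration and the fusion that precedes muscle fibre formation. Serum response factor (SRF), with its actin-regulated cofactors of the MRTF family, binds a DNA element called the CArG box near many of these genes.

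Values are MAS5 probe set signals, the summary that Affymetrix software makes from the probes of one set, on a linear scale that was the same for the whole array. A signal under 107, the median of all values of the 3 arrays pooled, was set to 107 before ratios were taken, and a ratio with 1 array under this floor is a bound. Each gene was represented by its brightest probe set, chosen by mean log2 signal over the 3 arrays, and its other probe sets, where they reached the floor, are described after it. Other probe sets of Acta2, Tpm3, Capzb, Tln1, Zyx, Pxn and Lasp1 were under the floor on all 3 arrays and are left out. A gene was counted as higher or lower at 2-fold, which is a log2 ratio of 1 or -1. By this floor 39 of the 44 genes were measured on all 3 arrays. Where a median or a call depends on how the arrays were scaled, values after quantile normalization or after 2 median scalings are given: the all-set median scaling matches the arrays' medians of every named probe set, and the measured-set one those of the sets above the floor on all 3 arrays. Cnn1, a smooth muscle calponin, was under the floor on each (43.6 in untreated, 13.2 in EGFP and 47.0 in DGKzeta cells) and has no ratio.

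The transfected gene stood out on its own array. On its brightest probe set Dgkz gave 1500.1 in untreated, 1053 in EGFP and 13466 in DGKzeta cells, and 188, 240.3 and 4315 on its second. Of 6 myoblast markers, 5 reached the floor on every array (Des, Vim, Myf5, Chrna1 and Cdh15), and the 6 signals summed to between 24284 and 27452, of which Vim made up 20590.1 to 24189. Within that sum, Myf5 gave 1058, 1227 and 2036 and Des 795, 932 and 479, so the markers did not move together. By contrast, Myod1, a defining myoblast factor, was under the floor on all 3 (35.1, 26.5 and 23.7). Of 7 markers of differentiated muscle, Acta1 alone reached the floor, on the untreated and EGFP arrays. None of 3 adipocyte, 4 endothelial and 4 epithelial markers reached it, and of 4 macrophage and leukocyte markers Csf1r alone did, in untreated cells. The median signal was 111 in untreated, 119 in EGFP and 92.5 in DGKzeta cells.

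The 300 bases around the annotated start of 38 of the genes, from 250 before to 50 after, were searched on both strands for the CArG box (RefSeq sequences, build GRCm38.p6). A match was present in 8 of 38, or 21.1%, namely Srf, Actg1, Vcl, Cnn2, Arpc4, Lima1, Myl6 and Myl9, against 488 of 27025 promoters, or 1.81%, of all genes in the same table. The 5 stretches of 80 bases below are shown because the brightest-set ratios of these 5 genes against EGFP span the range found among all 8. Each is written 5′ to 3′ along the gene's strand, with the CArG box in capitals.
Srf, chr17:46556190-46556269, minus strand: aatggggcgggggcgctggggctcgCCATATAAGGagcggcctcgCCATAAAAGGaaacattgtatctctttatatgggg
Actg1, chr11:120348541-120348620, minus strand: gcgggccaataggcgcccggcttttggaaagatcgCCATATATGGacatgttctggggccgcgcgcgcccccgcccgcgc
Vcl, chr14:20929148-20929227, plus strand: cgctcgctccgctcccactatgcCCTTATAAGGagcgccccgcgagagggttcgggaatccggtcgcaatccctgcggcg
Cnn2, chr10:79988509-79988588, plus strand: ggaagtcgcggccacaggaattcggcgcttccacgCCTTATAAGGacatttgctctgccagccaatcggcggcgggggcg
Arpc4, chr6:113377863-113377942, plus strand: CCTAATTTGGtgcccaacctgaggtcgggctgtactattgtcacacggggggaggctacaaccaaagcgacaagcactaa
Srf itself held 2 boxes, which began 82 and 62 bases before its start. The box began 90 bases before the start of Actg1, 227 before that of Vcl, 56 before that of Cnn2 and 250 before that of Arpc4. A match describes letters and not a bound site.

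Against EGFP, the transfection control, 28 of the 39 measured cytoskeletal genes of the DGKzeta array had a log2 ratio below 0 as deposited, although the all-set median scaling turned the sign of 14 of the 39. Over all 6926 genes 52.6% were below 0. The 2-fold rule counted 4 of them as lower (Actb, Flnc, Arpc4 and Tgfb1i1) and 0 as higher, where 2.84% of 6926 measured genes were lower and 0.347% higher. At 1.5-fold, 10 of 39 were lower and 0 higher, where 11.6% of all genes were lower and 3.51% higher. The median log2 ratio of the 39 was -0.17 and that of all genes -0.02. The all-set median scaling moved the median of all genes to 0.33 and that of the 39 to 0.19, so the sign of the median depends on the scaling, while it lay below that of all genes under both.

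Against untreated cells, a comparison that joins the kinase with transfection and shares the DGKzeta array, the same 4 genes were at least 2-fold lower and 0 were higher. Over all 6866 measured genes, 2.80% were lower and 1.34% higher. At 1.5-fold, 11 were lower and 1 higher, where 9.93% of all genes were lower and 7.09% higher. The median of the 39 was -0.25 and that of all genes -0.02, and under the all-set median scaling these were 0.01 and 0.24. Taken against both controls, 4 of 39 were at least 2-fold lower, where 1.42% of 6988 genes were.

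By brightest probe sets, EGFP transfection by itself was accompanied by little difference in these genes. Of 39, 0 were 2-fold lower and 0 were 2-fold higher than in untreated cells, where 0.303% of 6932 genes were lower and 0.361% higher. The median was -0.02, and the ratios ran from -0.72 for Flnc to 0.43 for Lasp1. Among the other probe sets, a Cald1 set was 2.98-fold lower in EGFP than in untreated cells and a Lasp1 set 2.99-fold higher.

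**Figure D1:**
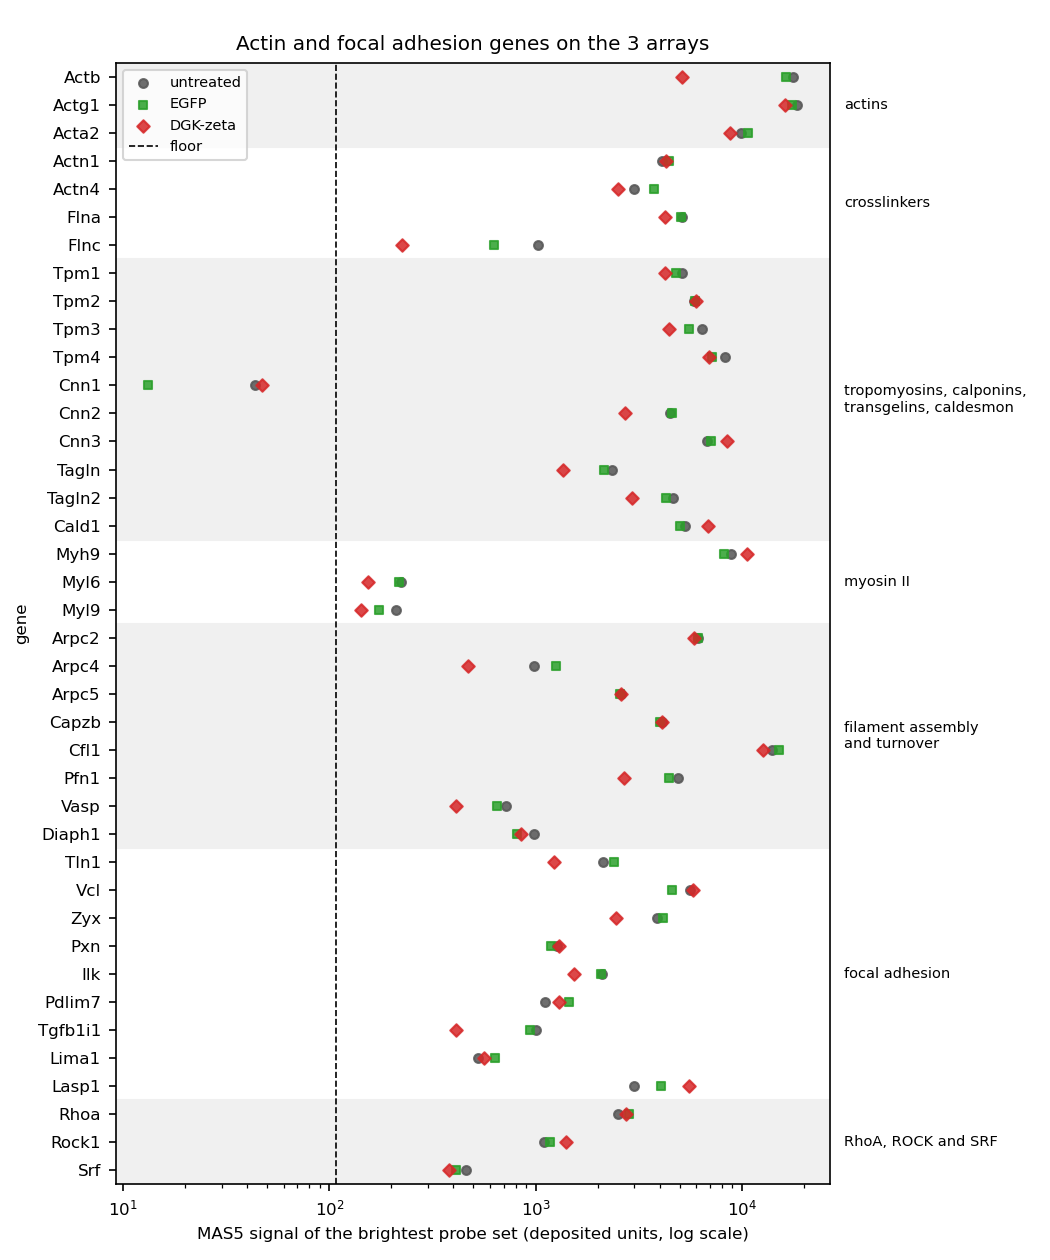
MAS5 signal (horizontal, log scale, deposited units) of the brightest probe set of each cytoskeletal gene (vertical) on the untreated, EGFP and DGKzeta arrays, 1 point per array. Actb, Flnc, Arpc4 and Tgfb1i1 have DGKzeta points at least 2-fold to the left of both control points, and Cnn1 lies under the floor of 107 on all 3 arrays.

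Among the actins, beta-actin was apart from the other 2 by brightest probe sets. Actb, the cytoplasmic beta-actin gene, gave 17775 in untreated, 16453 in EGFP and 5108 in DGKzeta cells, which is 3.22-fold lower than EGFP and 3.48-fold lower than untreated. The 2 control cultures were close to each other and the DGKzeta culture was the low one. Actg1, the cytoplasmic gamma-actin gene, gave 18539, 17500.4 and 16202 on the same arrays, so that its log2 ratios were -0.11 (EGFP) and -0.19 (untreated). Acta2, the smooth muscle actin that myoblasts also make, gave 9941, 10762 and 8802, with log2 ratios of -0.29 and -0.18. On these sets both genes thus differed from their controls by far less than Actb did. Each was measured on 1 set, of suffix _s_at, and without sets of suffix _x_at or _s_at Actb was the 1 actin left, at -1.69 against EGFP. Whether the Actg1 and Acta2 sets also bind other actin transcripts was not tested. The array's own 3 control probe sets for Actb were low on the DGKzeta array as well. The one at the 3′ end gave 20028, 18961 and 7437, the middle one 15206, 13708 and 2607, and the one at the 5′ end 15806, 13297 and 2914, which are log2 ratios of -1.35, -2.39 and -2.19 against EGFP. The 3′ to 5′ signal ratio of these Actb controls was 1.27 in untreated, 1.43 in EGFP and 2.55 in DGKzeta cells, while that of Gapdh was 0.841, 0.902 and 0.931. The part of this 3′ to 5′ ratio in the Actb result was not tested. A second, much dimmer probe set named Actb ran the other way, at 100.009 (under the floor), 191 and 325. Over the 3 actins the median was -0.29 against EGFP, but 0.07 under the all-set median scaling.

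Of the 4 crosslinkers, Flnc was the lowest. Flnc, the muscle filamin, gave 1031 in untreated, 626 in EGFP and 226 in DGKzeta cells. It was 2.77-fold lower than EGFP and 4.57-fold lower than untreated, and EGFP was itself 1.65-fold lower than untreated, so the signals descended from untreated through EGFP to DGKzeta. Flna, the widely expressed filamin, gave 5126, 5049 and 4251 (log2 ratio -0.25 against EGFP). Actn4, a non-muscle alpha-actinin, gave 3003, 3745 and 2507 (-0.58). Neither reached 1.5-fold. Actn1, the other non-muscle alpha-actinin, was level on its brightest probe set at 4112, 4439 and 4285. Its second probe set gave 879.5, 735 and 251, and the third 487, 510.2 and 199.8, which are log2 ratios of -1.55 and -1.35 against EGFP. Actn1 was therefore level by 1 probe set and at least 2-fold lower by the other 2. The median of the 4 brightest probe sets was -0.41 against EGFP and -0.27 against untreated, and -0.05 and -0.00 under the all-set median scaling.

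Genes for proteins that line the filament were mixed. Cnn2, a calponin that binds actin in non-muscle cells, gave 4496, 4580.0 and 2701 on the untreated, EGFP and DGKzeta arrays, 1.70-fold lower than EGFP. Tagln, the transgelin of smooth muscle, gave 2349, 2152.5 and 1363 and was 1.58-fold lower than EGFP. Tagln2, its non-muscle relative, gave 4634, 4292 and 2945, or -0.54 on the log2 scale relative to EGFP and -0.65 relative to untreated, and its second probe set was at -0.58 and -0.16. On the brightest sets of these 3 genes both controls lay close together with DGKzeta below. On the second Tagln2 set, at 1277, 1706 and 1141, EGFP was 1.34-fold above untreated. The tropomyosins run along the filament groove and decide which proteins reach it. Brightest probe sets of Tpm1, Tpm2 and Tpm4 had log2 ratios of -0.17, 0.01 and -0.04 against EGFP and of -0.27, 0.03 and -0.25 against untreated. The second Tpm1 set gave 3765, 3047 and 2223 (-0.46 and -0.76), and the third, at 207, 122 and 26.8, was at least 1.93-fold lower than untreated. The Tpm1 sets were thus all below both controls, by less than 1.5-fold on the brightest and by more than that against untreated on the others. The other Tpm2 sets had ratios of 0.08, 0.01 and -0.57 against EGFP. Tpm3 gave 6380.05, 5573 and 4426 (-0.33) on its brightest set and 967, 1012 and 1698 (0.75) on its second, so its probe sets pointed in opposite directions. Against untreated these ratios were -0.53 and 0.81. The second Tpm3 set carries the suffix _x_at, which marks sets with probes that may bind other transcripts. The third Tpm3 set gave 936, 1136 and 782 (-0.54 against EGFP), and the fourth reached the floor in untreated cells alone.

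Cnn3, an acidic calponin, was at or above EGFP on each of its 6 measured probe sets, with log2 ratios from 0.03 to 0.70. Its brightest gave 6782, 7075 and 8444, a ratio of 0.26 against EGFP. Against untreated its 6 sets ran from -0.05 to 1.26. The Cnn3 set of plain suffix _at was level, at 0.07 against EGFP and -0.05 against untreated, and the others carry the suffix _x_at. Cald1, the caldesmon that blocks myosin binding to actin, had the widest spread of this group. Its brightest probe set gave 5312 in untreated, 4991 in EGFP and 6891 in DGKzeta cells. Its second gave 1517, 901 and 404. The third gave 2784.5, 934 and 153, which is 6.12-fold lower than EGFP and 18.2-fold lower than untreated. Cald1 was thus above its controls by 1 probe set and far below them by the other 2, and those 2 were also lower in EGFP than in untreated cells. The Cald1 set above its controls carries the suffix _s_at and the other 2 the plain suffix _at. Over the 9 measured genes the median was -0.17 against EGFP and -0.27 against untreated, and 0.20 and -0.01 under the all-set median scaling, or -0.33 and -0.53 without sets of suffix _x_at or _s_at.

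Among the myosin II genes, Myh9 was split in the same way, while each light chain had 1 probe set. Myh9, the heavy chain of non-muscle myosin IIA, gave 8855 in untreated, 8207 in EGFP and 10579 in DGKzeta cells on its brightest probe set. Its second gave 3859, 5777 and 2457, and the third 1076, 1054 and 156, which is 6.77-fold lower than EGFP. The fourth gave 315, 402 and 90.9, and since the last value is under the floor it was at least 3.75-fold lower. One Myh9 probe set was therefore higher by less than 1.5-fold and 3 were at least 2-fold lower than EGFP. Myl6, an essential light chain, gave 223, 218 and 155 (log2 ratio -0.50), and Myl9, a regulatory light chain that ROCK signalling helps to phosphorylate, gave 209.7, 174 and 142 (-0.29). Both light chains lay close to the floor. The median of the 3 genes against EGFP was -0.29, but 0.07 under the all-set median scaling and 0.01 after quantile normalization.

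Of 8 measured genes for filament assembly and turnover, Arpc4 was the low one. Arpc4, a subunit of the Arp2/3 complex that nucleates branched filaments, gave 988 in untreated, 1257 in EGFP and 468 in DGKzeta cells. It was 2.69-fold lower than EGFP (log2 -1.43) and lower than untreated by a log2 ratio of -1.08, which no longer reached 2-fold after quantile normalization or either median scaling. Its second probe set gave 668, 794 and 516 (-0.62 against EGFP), lower again but by less. The other 2 measured Arp2/3 subunits were level, with Arpc2 at 6161, 6127 and 5865 and Arpc5 at 2601, 2575 and 2598. Pfn1, the profilin that feeds actin monomers to growing ends, gave 4908, 4462 and 2673 and was 1.67-fold lower than EGFP. Vasp, which elongates filaments at their tips, gave 717, 652 and 413 and was 1.58-fold lower. In both, DGKzeta lay below 2 controls that were near each other. Capzb, a capping protein subunit, was level at 4093, 4031 and 4104, with its other sets at -0.07 and -0.28 against EGFP.

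Cfl1, the cofilin that severs filaments, gave 14087, 15175 and 12700.4 on its brightest probe set and 3552, 3337 and 1329 on its second, which are log2 ratios of -0.26 and -1.33 against EGFP. The brightest Cfl1 set carries the suffix _x_at and the second the plain suffix _at. Diaph1, a formin that RhoA activates, had the highest ratio of the assembly genes at 0.07, from 987, 813 and 852. Its second probe set gave 129, 228 and 122, which put EGFP above both other arrays. Over the 8 genes the median was -0.16 against EGFP and -0.18 against untreated, and 0.20 and 0.08 under the all-set median scaling, or -0.36 and -0.50 without those suffixes.

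By their brightest probe sets, focal adhesion genes divided between low scaffolds and level or higher ones. The second probe sets of the level or higher genes Pxn, Pdlim7, Vcl, Lima1 and Lasp1 were all lower than EGFP. Tgfb1i1, which encodes Hic-5, a paxillin relative, gave 1008 in untreated, 935 in EGFP and 409.9 in DGKzeta cells. It was 2.28-fold lower than EGFP and 2.46-fold lower than untreated, and under the all-set median scaling it no longer reached 2-fold against EGFP. Tln1, the talin that joins integrin tails to actin, gave 2129, 2405 and 1233 and was 1.95-fold lower than EGFP. Zyx, the zyxin that gathers at strained adhesions, gave 3888, 4144 and 2456, 1.69-fold lower. In all 3 genes the controls were close and DGKzeta was below both. Ilk, the pseudokinase that links integrins to parvins, gave 2104, 2087 and 1541 (log2 ratio -0.44). Pxn, the paxillin that docks signalling proteins, gave 1265, 1189 and 1304 (0.13), and 431, 366 and 271 (-0.43) on its second probe set. Pdlim7, an adaptor of actin and kinases, had ratios of -0.17 and -0.48 on its 2 probe sets.

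Vcl, the vinculin that reinforces the link of talin to actin, was split by its 2 probe sets. The brightest gave 5641, 4601 and 5809 and the second 479, 348 and 112. These are log2 ratios of 0.34 and -1.63 against EGFP, the second 3.09-fold lower. Lima1, an actin-bundling LIM protein, gave 526, 632 and 562 on its brightest probe set and 734, 619 and 375 on its second, or -0.17 and -0.73. The third was at 159, 158 and 68.5, at least 1.47-fold lower than EGFP. Lasp1, a LIM and SH3 protein of adhesions, was named by 9 probe sets, of which 6 were measured on all 3 arrays. Its brightest gave 3011, 4047 and 5558.5, with ratios of 0.46 against EGFP and 0.88 against untreated, the highest of the 39 genes in the latter. Its second gave 4628, 5004 and 2844 (-0.81 and -0.70), and since this set was the brighter one on both controls, the direction of Lasp1 turns when the set is chosen on them alone. A dimmer set, under the floor in DGKzeta cells, was at least 1.86-fold lower than EGFP, and the fifth 852, 2547 and 6363, the last value being 7.47-fold above untreated. The 6 Lasp1 probe sets measured on all 3 arrays spanned -0.81 to 1.32 against EGFP. The Lasp1 sets above EGFP all carry the suffix _x_at, while the second and the dimmer set, of plain suffix _at, were lower. The median of the 9 adhesion genes was -0.17 against EGFP and 0.04 against untreated, with 0.19 and 0.31 under the all-set median scaling and -0.01 against untreated after quantile normalization. Other choices of probe set moved it down, to -0.73 and -0.66 with sets chosen on the 2 controls alone, where the second sets stand for Lasp1 and Lima1, and to -0.44 and -0.66 without sets of suffix _x_at or _s_at.

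The regulators were within 1.5-fold of both controls by their brightest probe sets. Rhoa, the GTPase that drives stress fibres, gave 2500.1, 2843 and 2738, and 1815, 2745 and 2836 on its second probe set, with log2 ratios of -0.05 and 0.05 against EGFP. Rock1, the RhoA effector kinase, gave 1103, 1178 and 1400.1 on its brightest set and 773, 842 and 1096 on the third, and the fourth reached the floor in untreated cells alone. Its second gave 1459, 1181 and 438, which is 2.69-fold lower than EGFP. When the brightest probe set was chosen on the 2 control arrays alone, an alternative added after the data had been seen, this low set stood for Rock1, and 5 in place of 4 genes were 2-fold lower in both DGKzeta comparisons. The share of all genes was not counted under that choice. Srf gave 462, 412 and 379 (-0.12) on its brightest set and 274, 344 and 149 (-1.21) on its second. The median of the 3 regulators was -0.05 against EGFP but above 0 under all 3 other scalings (0.05 to 0.31), and -0.12 with sets chosen on the controls alone. Against untreated it was 0.13, and -0.29 by that choice.

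**Figure D2:**
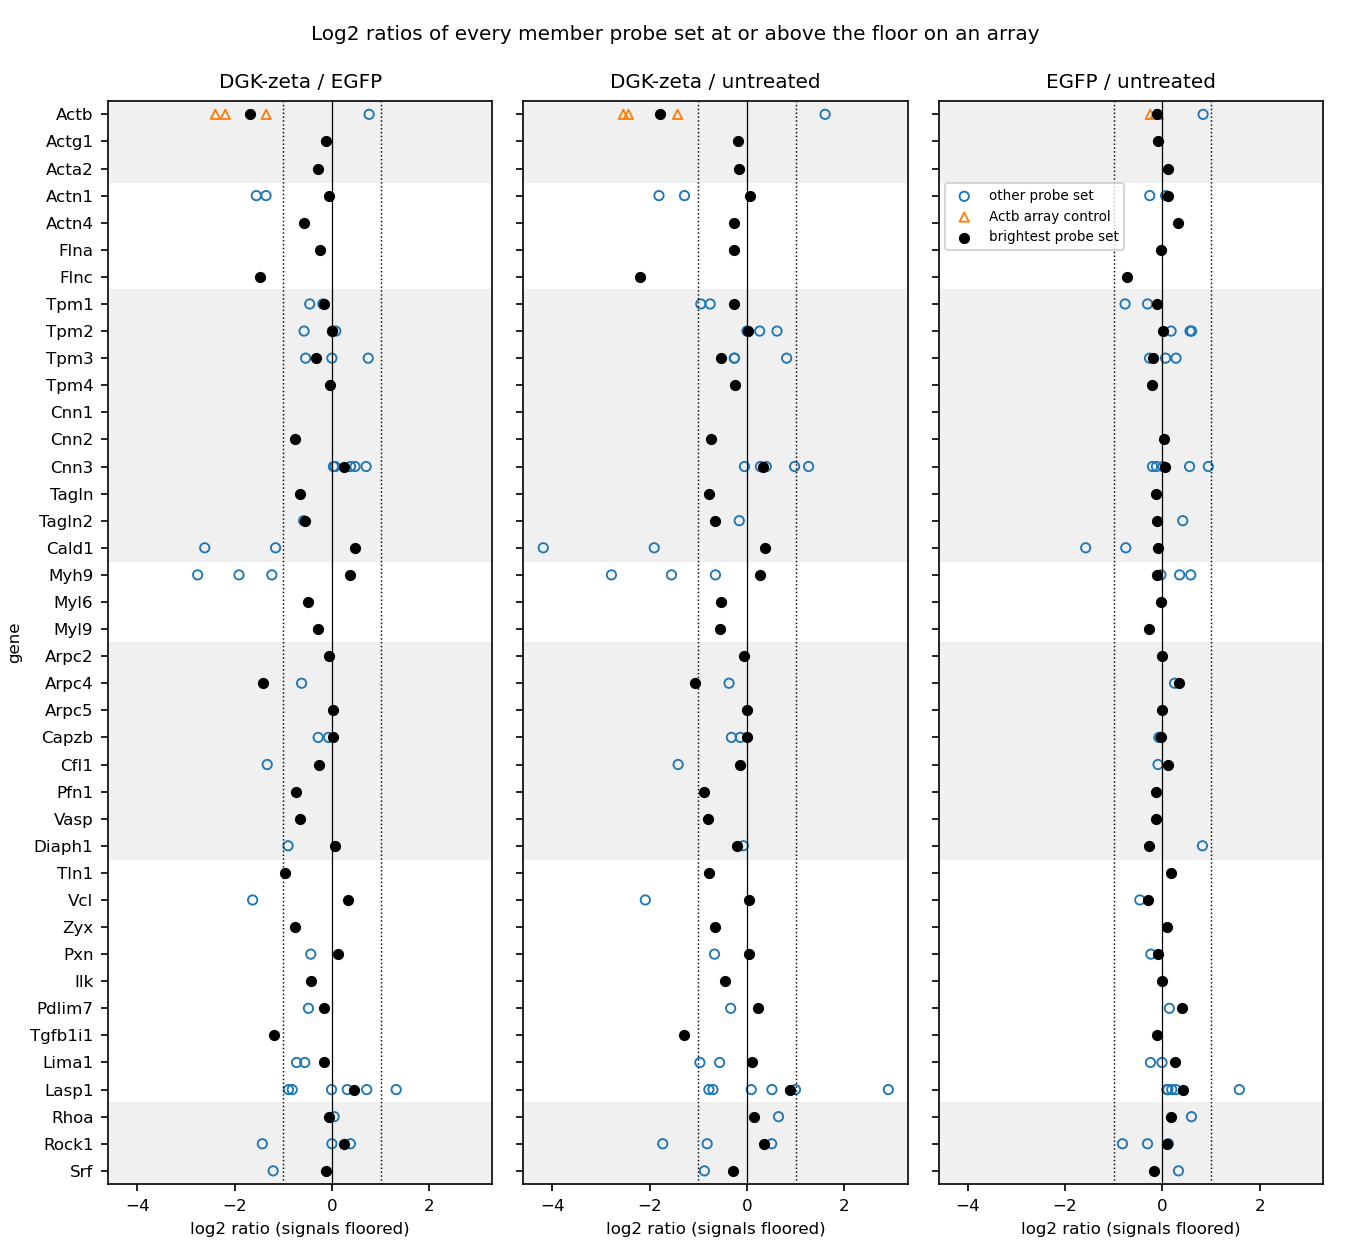
Log2 signal ratio (horizontal) of every cytoskeletal probe set that reached the floor on at least 1 array, by gene (vertical, shaded by role), for DGKzeta over EGFP, DGKzeta over untreated and EGFP over untreated. Filled points are brightest probe sets, open points other sets, triangles the Actb array controls and dotted lines 2-fold; Actn1, Cald1, Myh9, Vcl, Rock1 and Srf have a brightest set near or above 0 and another below -1 against EGFP.

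Counted by probe set in place of gene, low values were more frequent. Among 80 measured cytoskeletal probe sets 15 lay 2-fold or more below EGFP and 1 above, where 4.28% of 10866 named probe sets were lower and 0.497% higher. Against untreated 13 of 82 were lower and 3 higher, where 5.21% of 10833 were lower and 1.84% higher. Between EGFP and untreated 1 of 82 was lower and 1 higher, with 0.785% and 0.447% of 10954 as the background. Under the all-set median scaling, the counts against EGFP were 9 lower and 5 higher, and those over all probe sets 173 and 327 of 10863. Probe sets of a gene share its RNA and are not replicates.

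**Figure D3:**
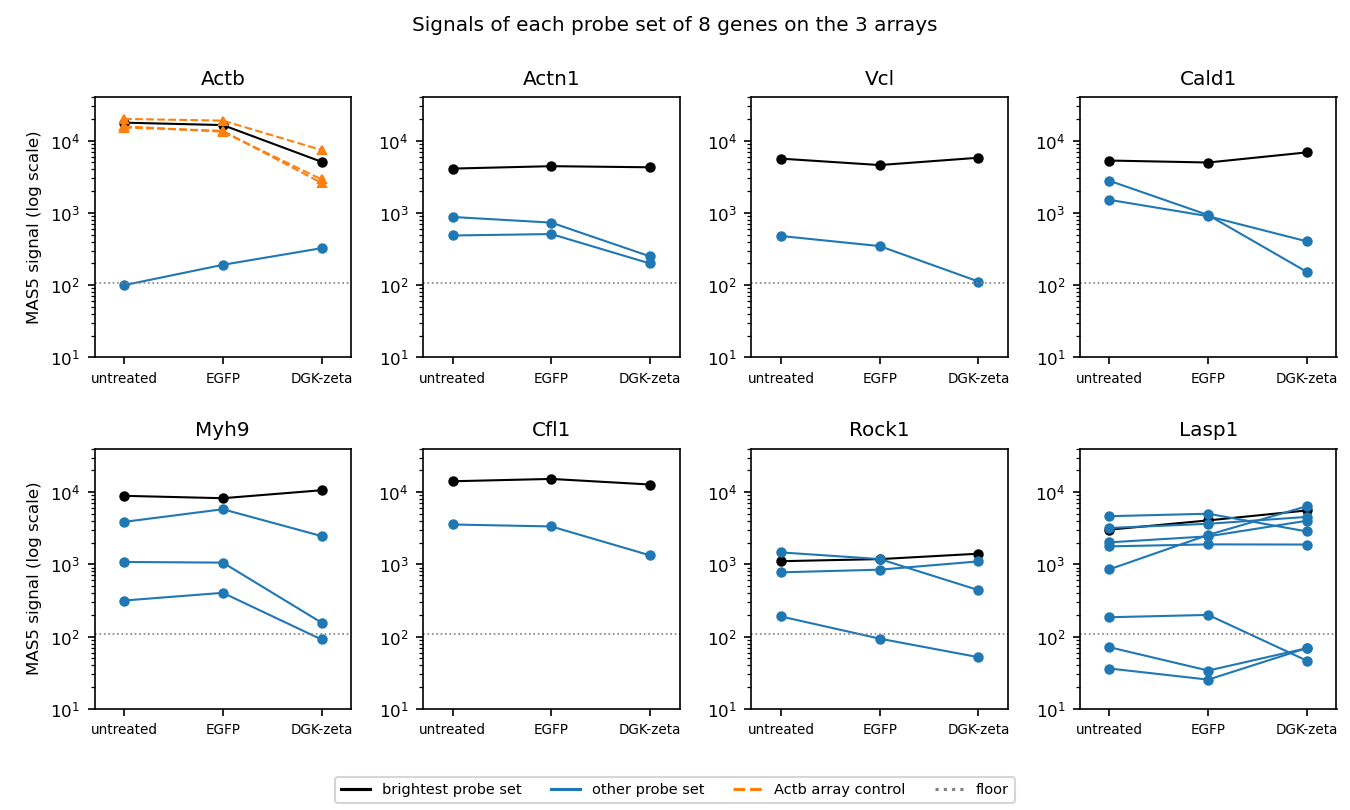
MAS5 signal (vertical, log scale, deposited units) of each probe set of 8 cytoskeletal genes on the untreated, EGFP and DGKzeta arrays (horizontal), 1 line per probe set, with the floor of 107 marked. The black brightest sets of Actn1, Vcl, Cald1, Myh9 and Rock1 stay close to level, while 1 or more blue sets of each drop on the DGKzeta array, as for Cald1 with 6891 on its brightest and 404 and 153 on its other sets.

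Probe sets of the same gene often gave different ratios on the DGKzeta array. For 20 of them, at least 2 probe sets were measured on all 3 arrays. The log2 ratios of the 2 brightest sets lay at least 1 apart in 9 of 20 (45%) against EGFP, where 8.09% of 2251 genes had such a pair. Those 9 were Actn1, Cald1, Cfl1, Lasp1, Myh9, Rock1, Srf, Vcl and Tpm3, and in 8 of them the second set was the lower one, Tpm3 being the exception. Over all genes the second set was the lower one in 137 of 182 such pairs. The ranking includes the DGKzeta array, which favours a second set that is lower there. For Rock1 and Lasp1 the order of the 2 sets turns when they are ranked on the controls alone. Against untreated, 8 of 20 (40%) were at least 1 apart, where 13.0% of all genes had such a pair. Between EGFP and untreated it was 1 of 20 (5%), Diaph1, where 1.82% did. The median absolute difference within a pair was 0.89 against EGFP, 0.71 against untreated and 0.29 between the controls, and 0.33, 0.39 and 0.21 over all genes. One factor per array cancels within a pair above the floor, so these differences do not move with either median scaling. The annotation lists the same source sequence for both probe sets in 6 of the 20 genes, and 4 of these 6 (Cald1, Rock1, Srf and Vcl) were at least 1 apart against EGFP, as were 3 of 10 with different sources. Over all genes it was 80 of 1023 (7.82%) with the same source and 69 of 810 (8.52%) with different ones.

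**Figure D4:**
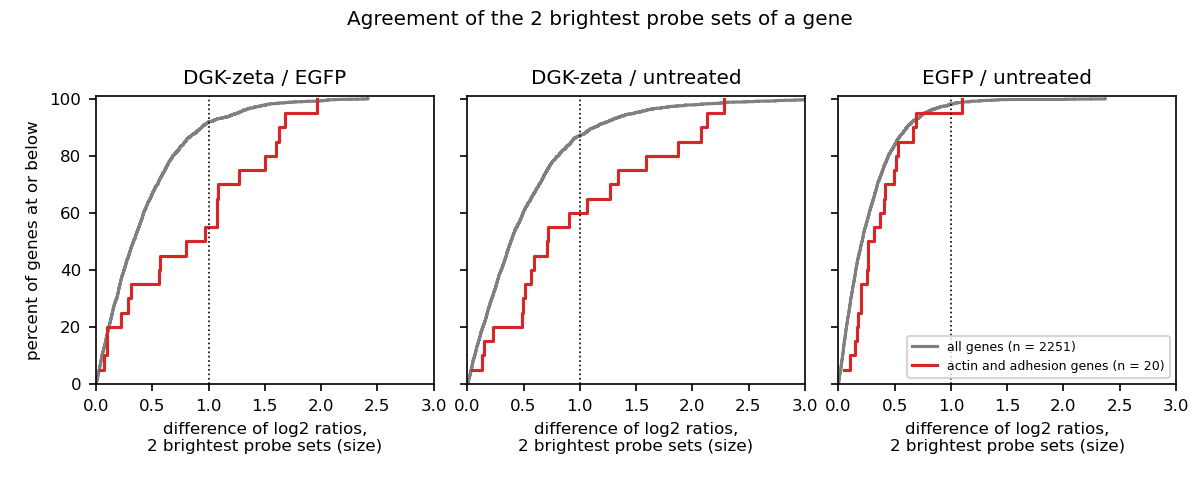
Percent of genes (vertical) whose 2 brightest probe sets differ in log2 ratio by at most the value on the horizontal axis, for the 20 cytoskeletal genes and the 2251 genes with such a pair, in each of the 3 comparisons. Against EGFP 45% of the cytoskeletal pairs and 8.09% of all pairs differ by at least 1, and between the controls 5% and 1.82% do.

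The brightest probe sets of the 8 genes with a CArG box had medians, as log2 ratios, of -0.23 (EGFP as the control) and -0.41 (untreated), with Arpc4 the lowest at -1.43 and Vcl the highest at 0.34 against EGFP. The 25 measured genes whose searched promoter had no box had medians of -0.17 and -0.18. Against untreated, Lima1 was the highest of the 8 at 0.10. The ranges overlapped, and the sequences printed above for Actg1 and Srf belong to genes whose brightest sets lay within 0.13 of 0 against EGFP. The second sets of Srf, Vcl and Lima1 were lower than their brightest, at -1.21, -1.63 and -0.73, and that of Arpc4 was higher, at -0.62.

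Further genes of the same pathways were read from lists of their own. Of 18 other focal adhesion genes measured, 2 were at least 2-fold lower than EGFP and 0 higher, with a median of -0.25, where 2.84% of all genes were lower and 0.347% higher, with a median of -0.02. Itga5, the fibronectin-binding integrin subunit, gave 390.2 in untreated, 701 in EGFP and 169 in DGKzeta cells (-2.06 against EGFP, -1.21 against untreated), with EGFP the high array. Lpp, a zyxin relative, gave 3162, 2126 and 931 (-1.19 and -1.76), but its second probe set gave 1789.96, 1342 and 1593 (0.25 against EGFP). Under the all-set median scaling Lpp no longer reached 2-fold against EGFP. The highest were Itgav, the integrin alpha-V subunit, at 0.89 and Crk, an adaptor downstream of paxillin, at 0.50. The second Itgav probe set was at -0.39, and the other measured Crk sets ran from -0.51 to 0.18. Under the all-set median scaling Itgav reached 2-fold on its brightest set. Of 27 other genes of actin assembly measured against EGFP, 0 were 2-fold lower and 0 higher, with a median of 0.07. They ran from Coro1c, a coronin, at -0.98 and Coro1b at -0.55 to Pfn2, the second profilin, at 0.57 and Cttn, the cortactin of branched networks, at 0.61. The other Cttn sets were at 0.41, -1.04 and -0.67, so its place at the top rests on its brightest set.

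Of 14 other SRF and MRTF genes measured, 1 was lower and 0 higher, with a median of -0.15, beside the same 2.84% and 0.347% of all genes, so 1 gene says little of the list. That gene was Mrtfa, the actin-regulated SRF cofactor, at 712, 839 and 403 (-1.06). Under either median scaling Mrtfa no longer reached 2-fold, while Egr1 of the same list was 2-fold higher under the all-set one. Des, the muscle intermediate filament gene, was next at -0.96, and the highest were Egr1, an immediate early factor, at 0.79 and Mcl1, a survival gene, at 0.43, whose other sets ran from -0.19 to 0.65. Under the all-set median scaling the 3 list medians against EGFP were above 0, at 0.12 for adhesion, 0.44 for assembly and 0.21 for SRF and MRTF genes, where that of all genes was 0.33.

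Compared with untreated cells, the medians of the same lists were -0.14 for adhesion, 0.16 for assembly and -0.34 for SRF and MRTF genes. Under the all-set median scaling these medians were 0.12, 0.42 and -0.07, where that of all genes was 0.24. At 2-fold, 2 of 18 measured adhesion genes, Itga5 and Lpp, were lower and 0 of 28 assembly genes were lower or higher. Over all 6866 genes 2.80% were lower and 1.34% higher. Rdx, the radixin that ties membrane to actin, was the highest assembly gene at 0.97. Under the all-set median scaling Itga5 no longer reached 2-fold against untreated, while Rdx did. Junb, an immediate early factor of the SRF list, gave 326, 171 and 83.1, and since its DGKzeta signal was under the floor it was at least 2-fold lower than untreated.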

How the data were processed

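RNA of 3 C2C12 cultures was labelled by the Affymetrix one-cycle protocol, per the labels' protocols, and hybridised to 1 array each. The deposited values are linear probe set intensities, which the authors made with MAS5 according to the submitters' processing notes. The sources used here give no MAS5 version, detection calls or probe positions. The mean between the 2nd and 98th percentile was 499.9 to 500 on each array, so the deposited intensities were used with no further scaling. Of 22690 probe sets, 64 were controls, 20380 had 1 gene symbol, 691 several and 1555 none in the platform annotation. Only those with 1 symbol were named, and symbols were checked in a RefSeq table (20351 found, 0 changed). The 44 genes had 91 probe sets.

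With 1 array per group no test could be run. Ratios are of floored log2 values, and a gene counted as measured in a comparison when 1 of its 2 arrays reached the floor. Genes and lists were chosen with earlier results of these data known, and 1 further list is not reported here. Values on every array are given for genes at least 1.5-fold apart, the extremes of each role group, genes whose probe sets differed by at least 1 in log2 ratio, and, of each further list, genes 2-fold apart and the 2 highest and lowest. Alternatives were 3 scalings, other floors and a pseudocount, other choices of probe set, and rules of 1.5-fold and 3-fold. The counting was tested on simulated data. Promoters came from RefSeq (GRCm38.p6). Python 3.11.15, numpy 2.4.6, pandas 2.3.3 and matplotlib 3.10.9 were used. The number of arrays limits the precision.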

Additional observations from a re-analysis of the deposited data

How the results depend on the processing

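No paired analysis was possible because each group has 1 array and no result comes from a test. Against EGFP, the count of genes 2-fold lower (4) was 2 with the floor at the 75th percentile, 7 of 21 by second-brightest probe sets, 7 of 37 without sets of suffix _x_at and _s_at, 10 at 1.5-fold and 1 at 3-fold. At 1.5-fold, 11.6% of 6926 genes were lower. Of cytoskeletal sets other than the brightest, 11 of 41 were 2-fold lower than EGFP, where 268 of 3940 such sets of all genes were. Under the settings other than 1.5-fold, no share of all genes was counted. The count higher (0) was 1 (Cnn1) with the floor at the 25th percentile. The median (-0.17) was 0.19 under the all-set median scaling, -0.065 under the measured-set one, -0.44 by the mean over probe sets, -0.62 by second-brightest sets, -0.43 without suffix _x_at or _s_at, and -0.29 with the brightest set chosen on the controls alone. Against untreated, the count lower (4) was 1 with the higher floor, 11 at 1.5-fold and 2 at 3-fold. At 1.5-fold, 9.93% of all genes were lower and 7.09% higher. Arpc4 dropped out under each of the 3 scalings, and Cald1 and Cfl1 were added without suffix _x_at or _s_at. By the mean over probe sets the lower genes were Actn1, Flnc, Cald1, Myh9, Vcl and Tgfb1i1. By second-brightest sets they were Actn1, Cald1, Cfl1, Vcl and Rock1. Of cytoskeletal sets other than the brightest, 9 of 43 were 2-fold lower than untreated, where 372 of 3967 such sets of all genes were. The count higher (0) was 1 under the all-set median scaling (Lasp1), by second-brightest sets (Actb) and at 1.5-fold (Lasp1). The median (-0.25) was 0.0103 and -0.16 with the 2 median scalings, -0.41 by the mean over probe sets, -0.65 by second-brightest sets and -0.53 without suffix _x_at or _s_at. Between EGFP and untreated, 1 gene was lower with the lower floor (Cnn1) and at 1.5-fold (Flnc), where 105 of all 6932 genes were at 1.5-fold. That median (-0.02) was -0.12 under the all-set median scaling, 0.0656 by second-brightest sets and -0.0832 with the controls-alone choice. The cause of these shifts was not tested. The mean over probe sets put Cald1 and Myh9 among the low genes against EGFP and took Actb out. Against EGFP, the sign of 6, 14 and 4 of 39 genes changed under quantile normalization and the 2 median scalings.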

Other observations

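The ratios of these genes differed by the kind of probe set. Of 14 measured cytoskeletal probe sets of suffix _x_at, which Affymetrix gives to sets with probes that may bind other transcripts, 11 had log2 ratios above 0 against EGFP, with a median of 0.35. Over the 811 measured sets of that suffix on the array, 63.0% were above 0, with a median of 0.12. Of 45 cytoskeletal sets with the plain suffix _at, 9 were above 0, with a median of -0.62, and of all 6881 such sets 42.6% were, with a median of -0.08. The 13 sets of suffix _a_at had a median of -0.44 and the 8 of suffix _s_at one of -0.12, where all sets of these suffixes had medians of -0.07 and 0.02. Against untreated, 12 of the 14 sets of suffix _x_at were above 0, with a median of 0.56, where 66.6% of all 806 were, with a median of 0.19. Under the all-set median scaling the ratios of sets above the floor against EGFP shift upward. The cytoskeletal _x_at sets came from few genes and most of them, also of those above 0, from Cnn3 and Lasp1, so they are not independent of each other.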
